A study of Mus musculus with 4 samples.

Results

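Activated CD8 T cells were taken from 4 transplanted mouse mammary tumours and compared between wild-type (WT) hosts and hosts that lack the gene for interleukin 1α (IL1a-/-). Barcodes needed 500 or more UMIs (unique molecular identifiers, so that copies of a molecule made by PCR count once), 250 or more genes and no more than 20% of UMIs from mitochondrial genes. A barcode entered the CD8 gate with at least 1 UMI over Cd3d, Cd3e and Cd3g and at least 1 over Cd8a and Cd8b1, with 0 over Cd4, Foxp3, Trdc and Ncr1, at most 1 over Lef1, Ccr7 and Dapl1, fewer than 2 over Mki67 and Top2a, and fewer than 3 of Lyz2. The rule limits naive and cycling genes and asks for no activation gene, so the name activated was not shown for every member. Several activation genes given below, among them Gzmb, Ctla4 and Icos, were lower in WT members, while Cd69 overlapped between groups. The gate held 1561 of 14555 kept barcodes. WT replicates 1 and 2 gave 92 of 4001 and 161 of 4006, and IL1a-/- replicates 1 and 2 gave 745 of 3213 and 563 of 3335. The cells were chosen by their measured UMIs of these genes, and the genes named in the gate are described without a test. Mitochondrial genes entered the choice through the 20% limit only, and their test results are given as descriptions.

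All hosts were FVB/NJ mice of 6 to 8 weeks that received H605 cells, a HER2-positive mammary tumour line, in the mammary pad, and tumours were taken on day 14. The 2 WT and 2 IL1a-/- tumours are 1 sample each, collected as 2 pairs on separate days, and the transplanted line was the same in both groups. The loss was in every host cell type, so a difference in CD8 cells cannot be told apart from one set by other host cells. The labels name no separate litter or clone, and p-values measure the spread between these 4 tumours only.

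CD8 T cells recognise peptides on MHC class I through an αβ T cell receptor and kill by releasing perforin and granzymes. Once activated they lose the naive transcription factors, gain receptors for inflamed tissue, and under lasting antigen raise inhibitory receptors such as PD-1 and CTLA-4. CD8 cells in tumours that keep Tcf7 and Il7r are commonly called memory-like or stem-like.

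Transcripts outside the rule were those of αβ T cells, and some members also held innate genes. Of the gated barcodes, 93.3% to 97.5% per sample had a UMI of Trac, Trbc1 or Trbc2, the constant parts of the αβ receptor. Ccl5, a chemokine of effector and memory CD8 cells, was found in 66.9% to 95.1% of gated barcodes after each was thinned to 1000 UMIs, and in 0.521% to 3.08% of fibroblast barcodes treated the same way. Cd8a had UMIs in 74.9% to 86.5% of members and Cd8b1 in 75.0% to 84.5%, as the rule asks for either. Barcodes with 0 and 1 UMI of the naive genes Lef1, Ccr7 and Dapl1, inside the limit, and with 2, just outside it, had Ccl5 at 3302, 2240 and 1270 CPM (counts-per-million of the UMIs of those barcodes) in WT replicate 1, and 21567, 11198 and 3368 in IL1a-/- replicate 1. In replicates 2 the values were 4770, 2694 and 1933 (WT) and 14248, 10649 and 8670 (IL1a-/-). Gzmb, a killing gene described below, was at 1026, 616 and 1183 CPM in IL1a-/- replicate 2. There the 26 barcodes just outside the limit were not lower in Gzmb than members. Just outside it, Gzmb was at 0 CPM in both replicates 1 and at 30.8 in WT replicate 2.

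Members held 336447 and 686823 UMIs in WT replicates 1 and 2 and 1313241 and 1994156 in IL1a-/- replicates 1 and 2. Their median was 3251.5 and 3275 UMIs in the WT tumours and 1557 and 3047 in the IL1a-/- tumours, so IL1a-/- replicate 1 stands apart in depth. No member barcode was shared between libraries. Il1a itself had 67 and 112 UMIs over all kept WT barcodes and 1 and 0 over all kept IL1a-/- barcodes, and 0 in the CD8 gate of every tumour. RNA of other cells was in the gate and was not equal between groups: 8.70% and 6.21% of WT members against 2.01% and 3.91% of IL1a-/- members had at least 2 UMIs from a marker set of fibroblasts, tumour epithelium, neutrophils, plasmacytoid dendritic cells, phagocytes or B cells. The upper estimate of free RNA in members was 21.4% and 13.8% in the WT tumours against 5.10% and 8.68%. Values without those barcodes are given beside the results they touch, and elsewhere the part of such RNA was not tested.

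CD8 barcodes took a larger share of the IL1a-/- tumours. The share was 2.30% (95% Clopper-Pearson interval 1.86 to 2.81) and 4.02% (3.43 to 4.67) in the WT tumours, and 23.2% (21.7 to 24.7) and 16.9% (15.6 to 18.2) in the IL1a-/- tumours. The groups did not overlap, and the means were 3.16% ± 1.22 and 20.03% ± 4.46 (SD, n = 2 each). The exact two-sided permutation p was 0.33, the smallest that 2 against 2 tumours allow. The intervals cover counting error only.

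The shares of other lymphocytes lay closer together. Conventional CD4 T cells, gated by Cd4 without Cd8 or Foxp3, were 5.65% and 5.97% of WT barcodes and 3.55% and 7.71% of IL1a-/- barcodes. Natural killer (NK) cells were 9.82% and 9.44% against 9.15% and 6.66%. As a share of all CD3-positive barcodes, the CD8 gate was 5.82% and 9.54% in the WT tumours and 42.8% and 28.2% in the IL1a-/- tumours. A share gives no number of cells per tumour, and no cell yield was used here.

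The CD8 barcodes that the rule turned away differed too. Those turned away for naive genes were 27.0% and 22.6% of such barcodes plus members in the WT tumours and 3.12% and 8.01% in the IL1a-/- tumours. The difference was -19.2 percentage points, given as a description because the rule uses these genes. At 1000 UMIs per barcode the shares were 12.7% and 1.34% in the WT tumours and 1.15% and 1.21% in the IL1a-/- tumours, so that WT replicate 1 alone stood apart, on 8 of 63 barcodes. Those turned away as cycling were 10.7% and 12.97% in the WT tumours and 10.2% and 23.4% in the IL1a-/- tumours. The cycling shares overlapped between groups, and their difference rested on IL1a-/- replicate 2: without it the difference of 4.99 points became -1.59.

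**Figure D1:**
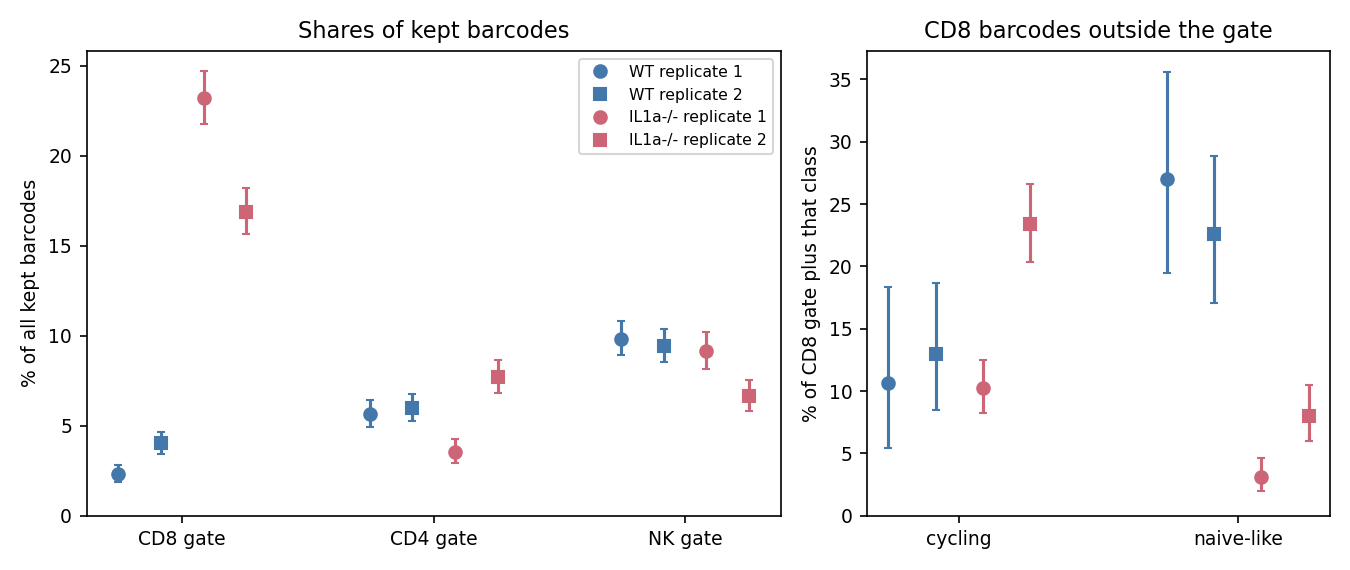
Left, share of all kept barcodes (%) in the CD8, CD4 and NK gates of each tumour; right, cycling and naive-like CD8 barcodes as a share (%) of the CD8 gate plus that class. Points are tumours and bars are exact 95% binomial intervals; the CD8 gate separates the groups, from 2.30% and 4.02% to 16.9% and 23.2%.

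Expression was compared on UMIs summed per tumour over the gate, with edgeR's quasi-likelihood test and Benjamini-Hochberg adjustment over 7657 genes. At an adjusted p under 0.05, 73 genes differed, which is 0.953% of those tested: 34 were higher in IL1a-/- hosts (0.444%) and 39 lower (0.509%). In each of the 73 the WT and IL1a-/- values stood apart, but so they did in 48.7% of all genes tested, and with 2 tumours a group a lack of overlap says little by itself. Levels below are counts-per-million (CPM) on edgeR's TMM-scaled library sizes, given for WT replicates 1 and 2 and then IL1a-/- replicates 1 and 2. Fewer cells of one kind within the gate and less RNA per cell cannot be told apart in these sums. Gene positions are those of GENCODE vM21 on GRCm38.

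Killing genes were among those higher in IL1a-/- hosts. Gzmb (granzyme B, a protease that starts apoptosis in the target cell; chromosome 14, 56258838 to 56262260) was at 125 and 306 CPM in the WT tumours and at 1022 and 986 CPM in the IL1a-/- tumours. Every IL1a-/- tumour exceeded both WT tumours, with a log2 fold change of 2.18 ± 0.37 (SE; edgeR adjusted p = 0.047). Prf1 (perforin, which forms the pore; chromosome 10, 61297833 to 61304680) was at 42.7 and 88.1 against 262 and 268 CPM, a log2 fold change of 1.95 ± 0.32 (edgeR adjusted p = 0.046). The IL1a-/- values of Prf1 lay close together and above both WT values. Without barcodes that hold markers of other cells, the log2 fold changes were 1.89 for Gzmb (edgeR adjusted p = 0.023) and 1.68 for Prf1 (0.022). Both calls were lost at 1000 UMIs per barcode (adjusted p = 0.0553 and 0.0728) and with free RNA subtracted (0.0758 and 0.0707), the latter a setting that gave 16 calls over all genes. Gzmb also missed it with at most 10% mitochondrial UMIs (0.0510).

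The rest of the cytotoxic granule list did not pass the test. Of its 19 genes, 14 were tested, 2 were called higher and 0 lower, and the median log2 fold change was 0.31 beside 0.01 for all genes tested. Serpinb9, an inhibitor that shields the killer cell from granzyme B, was at 67.2 and 64.2 against 145 and 166 CPM (edgeR adjusted p = 0.061). It passed without IL1a-/- replicate 2 (0.0460), with at least 1000 UMIs per barcode (0.0469), with at least 2 CD8 UMIs (0.0473) and by DESeq2 (0.0437). Nkg7, a granule membrane protein, was at 1133 and 1814 against 2114 and 1742 CPM and overlapped between groups. Gzma (granzyme A) was at 3.05 and 343 against 28.3 and 24.1 CPM: WT replicate 2 alone was high, and without it the log2 fold change turned from -2.83 to 3.07. Granzymes C and K were at most 39.7 CPM in any tumour.

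Chemokines and cytokines moved both ways. Of 15 genes of this list, 12 were tested, 2 were called higher and 2 lower, and the median was -1.53. Ccl5 (chromosome 11, 83525778 to 83530518), a chemokine for T cells and monocytes, was at 3133 and 4484 against 20762 and 14017 CPM. Both IL1a-/- tumours exceeded both WT tumours, with a log2 fold change of 2.19 ± 0.26 (edgeR adjusted p = 0.025; 0.0529 with free RNA subtracted). Csf1, the growth factor of the macrophage lineage, was at 12.2 and 19.4 against 68.2 and 62.1 CPM (log2 fold change 1.94 ± 0.31, edgeR adjusted p = 0.044). Its level was low in every tumour, and the call was lost without WT replicate 2 (edgeR adjusted p = 0.0612), at 1000 UMIs per barcode (0.126) and with free RNA subtracted (0.0707).

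Xcl1 and Ccl1 were lower in IL1a-/- hosts. Xcl1 (chromosome 1, 164931644 to 164935527), the ligand for the receptor XCR1 of cross-presenting dendritic cells, was at 391 and 899 against 47.5 and 38.0 CPM. Its WT values were far above both IL1a-/- values, with a log2 fold change of -3.93 ± 0.42 (edgeR adjusted p = 0.018). Ccl1, a ligand of CCR8, was at 189 and 184 against 35.2 and 11.8 CPM (log2 fold change -3.04 ± 0.44, edgeR adjusted p = 0.035). At 1000 UMIs per barcode, Xcl1 was found in 16.9% and 14.4% of WT members and 2.47% and 1.83% of IL1a-/- members, beside at most 1.04% of fibroblast barcodes. Without barcodes holding markers of other cells, Xcl1 and Ccl1 passed the test (edgeR adjusted p = 0.00281 and 0.00999), and with free RNA subtracted Ccl1 did not (0.0555).

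WT replicate 2 set the direction of Ifng, Ccl3 and Ccl4. Ifng, the main macrophage-activating cytokine of CD8 cells, was at 51.9 and 951 against 101 and 159 CPM. Ccl3 and Ccl4, inflammatory chemokines, were at 73.3 and 796 against 73.5 and 150 CPM, and at 638 and 2423 against 626 and 795 CPM. In these 3 genes WT replicate 2 was the highest tumour and WT replicate 1 was near or below the IL1a-/- tumours, and without WT replicate 2 the log2 fold changes went from -1.98 to 1.35 for Ifng, from -1.98 to 0.64 for Ccl3 and from -1.12 to 0.18 for Ccl4. Il10, an inhibitory cytokine, had 0 UMIs in both WT tumours and 22 and 37 in the IL1a-/- tumours. Against a floor of 3 counts over the WT group, Il10 was at least 6.08-fold higher in IL1a-/- hosts, with an edgeR adjusted p of 0.059 that was 0.0280 without WT replicate 1 and 0.0426 in the αβ gate without innate genes (members with a UMI of Trac, Trbc1 or Trbc2 and without Fcer1g, Tyrobp or Klrb1c).

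**Figure D2:**
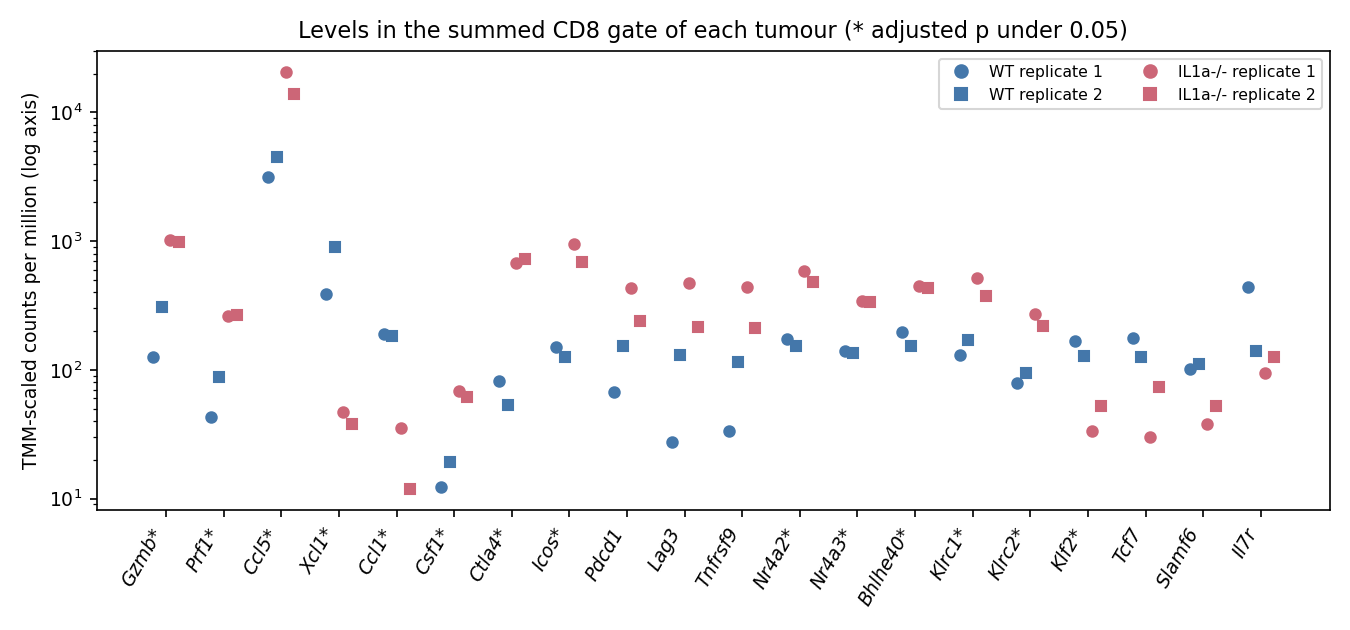
TMM-scaled CPM (log axis) of named genes in the summed CD8 gate of each tumour, 1 point per tumour; an asterisk marks an edgeR adjusted p under 0.05. Gzmb runs from 125 and 306 in WT to 1022 and 986 in IL1a-/- tumours, and Xcl1 from 391 and 899 to 47.5 and 38.0.

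The promoters of Gzmb, Prf1, Ctla4 and Xcl1, 3 genes that rose and 1 that fell, are shown as those of a protease, a pore protein, an inhibitory receptor and a chemokine whose levels are given above or below. Icos and Ccl5 have no entry in the table. Each line is the 250 bases before the RefSeq start site (GRCm38.p6, 5′ to 3′ on the gene's strand). They lie at chr14:56262335-56262584 on the minus strand (Gzmb), chr10:61297586-61297835 on the plus strand (Prf1), chr1:60908775-60909024 on the plus strand (Ctla4) and chr1:164935523-164935772 on the minus strand (Xcl1). Capitals mark matches on either strand to TGANTCA (AP-1), TGTGGT (RUNX), GGAAAA (a core of NFAT sites) or GGTGTGA (a T-box core), which do not overlap one another here.
Gzmb: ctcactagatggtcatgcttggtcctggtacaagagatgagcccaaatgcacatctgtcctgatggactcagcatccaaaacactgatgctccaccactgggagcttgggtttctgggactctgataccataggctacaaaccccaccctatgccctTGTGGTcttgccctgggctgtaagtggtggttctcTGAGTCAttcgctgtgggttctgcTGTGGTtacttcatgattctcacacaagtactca
Prf1: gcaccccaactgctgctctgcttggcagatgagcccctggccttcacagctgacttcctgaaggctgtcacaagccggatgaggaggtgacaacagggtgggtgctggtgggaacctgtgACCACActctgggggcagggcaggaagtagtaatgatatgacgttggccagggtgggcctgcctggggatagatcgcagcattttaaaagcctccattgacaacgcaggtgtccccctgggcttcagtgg
Ctla4: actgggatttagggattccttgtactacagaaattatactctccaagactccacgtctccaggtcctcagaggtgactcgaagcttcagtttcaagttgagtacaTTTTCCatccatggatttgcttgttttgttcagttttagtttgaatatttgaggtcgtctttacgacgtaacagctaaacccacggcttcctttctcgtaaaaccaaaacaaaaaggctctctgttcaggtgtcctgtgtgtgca
Xcl1: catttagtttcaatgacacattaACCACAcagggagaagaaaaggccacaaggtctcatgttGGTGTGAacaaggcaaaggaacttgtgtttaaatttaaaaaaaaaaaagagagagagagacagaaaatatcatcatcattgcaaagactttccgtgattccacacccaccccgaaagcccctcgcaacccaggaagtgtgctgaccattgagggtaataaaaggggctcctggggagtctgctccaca

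Gzmb held 1 AP-1 match, 58 bases before the start, and 2 RUNX matches, 93 and 34 bases before it. Prf1 held 1 RUNX match on the opposite strand, 130 bases before the start. Ctla4 held 1 NFAT core on the opposite strand at 145 bases, and Xcl1 a RUNX match on the opposite strand at 227 and a T-box core at 188 bases. Over 32851 promoter windows of the same length, 6.75% held the AP-1 letters, 14.05% the RUNX letters, 20.4% the NFAT core and 3.33% the T-box core. Of the called genes, 29 of the 34 higher and 25 of the 39 lower had a promoter in the table. The AP-1 letters were in 3 and 0 of these, the RUNX letters in 6 and 4, the NFAT core in 8 and 8, and the T-box core in 4 and 2. A gene counted here if any of its promoters held the letters (41 promoters for the higher and 30 for the lower genes). The 32851 windows were counted singly, so these counts and those shares are not measured alike. A match describes the letters of the reference and is not a measured site.

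Among inhibitory receptors, Ctla4 passed the test and several others did not. Of 14 checkpoint and exhaustion genes, 13 were tested, 2 were called higher and 0 lower, and the median log2 fold change was 1.54. Ctla4 (chromosome 1, 60887000 to 60915832), which competes with CD28 for its ligands, was at 82.4 and 53.7 against 678 and 722 CPM. The groups lay far apart, with a log2 fold change of 3.40 ± 0.28 (edgeR adjusted p = 0.017). Ctla4 is also a marker of regulatory T cells, whose defining genes Cd4 and Foxp3 are at 0 in the gate by the rule. Nr4a2, a nuclear receptor induced by T cell receptor signals, was at 174 and 152 against 585 and 482 CPM (log2 fold change 1.71 ± 0.23, edgeR adjusted p = 0.033; 0.0549 without WT replicate 2 and 0.0529 with free RNA subtracted).

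Pdcd1, Lag3, Havcr2 and Tnfrsf9 were higher in both IL1a-/- tumours than in both WT tumours but missed the threshold. Pdcd1 (PD-1) was at 67.2 and 154 against 431 and 238 CPM (log2 fold change 1.54 ± 0.42, edgeR adjusted p = 0.128). Lag3, a receptor for MHC class II, was at 27.5 and 130 against 477 and 216 CPM (adjusted p = 0.152), and Havcr2 (TIM-3) at 3.05 and 58.2 against 210 and 120 CPM (adjusted p = 0.158). In all 3, IL1a-/- replicate 1 was highest and WT replicate 1 lowest, and the groups did not overlap. Tnfrsf9 (4-1BB), an activation-induced costimulator, was at 33.6 and 115 against 443 and 212 CPM (adjusted p = 0.114). Leaving out IL1a-/- replicate 2 took Pdcd1, Lag3, Havcr2 and Tnfrsf9 past the threshold, with edgeR adjusted p of 0.00025, 1.49e-05, 3.71e-05 and 8.77e-06. Leaving out WT replicate 2 did so for Lag3 (0.0267), Havcr2 (0.0105) and Tnfrsf9 (0.0312), and not for Pdcd1 (0.0593). Pdcd1 also passed by DESeq2 (0.0369), and Havcr2 at 1000 UMIs per barcode (edgeR adjusted p = 0.0271). Tox, a factor of exhausted cells, was at 94.7 and 104 against 245 and 31.3 CPM, so the IL1a-/- tumours lay on both sides of the WT tumours, and the log2 fold change of 0.44 became -1.65 without IL1a-/- replicate 1 and 1.31 without IL1a-/- replicate 2.

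Equal depth gave the same order for these receptors. At 1000 UMIs per barcode, Pdcd1 was found in 3.37% and 8.75% of WT members and 34.2% and 18.9% of IL1a-/- members, and Lag3 in 3.37% and 8.12% against 36.8% and 18.2%. Havcr2 was found in 0 of 89 members of WT replicate 1, which allows a share of up to 3.37% (3 counts of 89; the exact 95% interval ends at 4.06%), in 1 of 160 members of WT replicate 2, and in 123 of 647 and 45 of 545 IL1a-/- members. In fibroblast barcodes of the 4 libraries, Pdcd1 was found in 0 of 192 to 297, which allows 1.01% to 1.56%, and Havcr2 in at most 0.521% and Lag3 in at most 1.76%. Fibroblast barcodes were deeper before thinning, with medians of 3110.5 to 10387 UMIs.

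**Figure D3:**
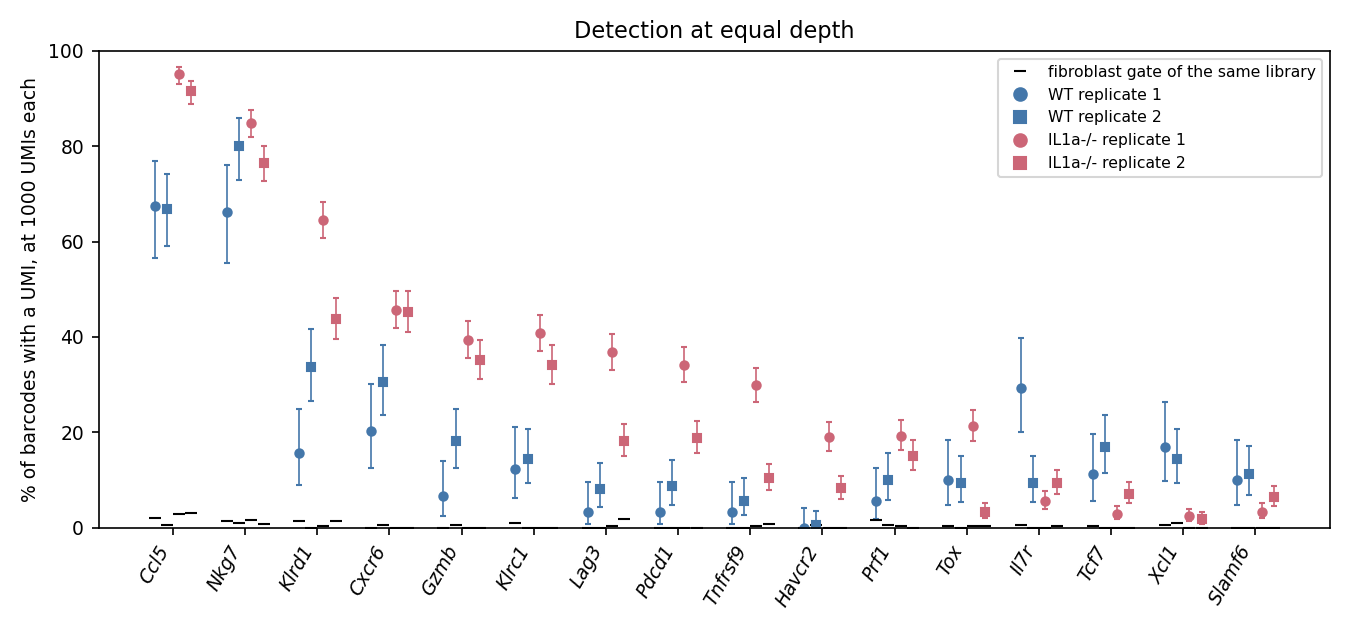
Share of barcodes (%) with at least 1 UMI of each gene after thinning every barcode to 1000 UMIs, by tumour, with exact 95% binomial intervals; black dashes are the fibroblast gate of the same library. Ccl5 and Gzmb are found more often in IL1a-/- members, Xcl1 and Tcf7 in WT members, and the fibroblast shares are at most 3.08% for Ccl5.

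Among costimulatory genes, Icos stood apart. Icos, a CD28-family receptor induced by activation (chromosome 1, 60977927 to 61000320), was at 150 and 127 against 955 and 686 CPM (log2 fold change 2.58 ± 0.26, edgeR adjusted p = 0.017). It was the 1 gene called of 14 tested in this list, whose median was 0.61 and of which 10 genes had both IL1a-/- tumours above both WT tumours (24.7% of all genes did). Cd44, the classic marker of antigen experience, was at 137 and 175 against 291 and 235 CPM (adjusted p = 0.188). Cd69 was at 220 and 139 against 122 and 169 CPM and overlapped.

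Transcription factors of activation had smaller fold changes. Of 16 genes, 15 were tested, 2 were called higher and 0 lower, with a median of 0.88. Nr4a3, of the same family as Nr4a2, was at 140 and 136 against 345 and 335 CPM (log2 fold change 1.30 ± 0.22, edgeR adjusted p = 0.046). Bhlhe40, a transcription factor induced by T cell activation, was at 195 and 152 against 446 and 435 CPM (log2 fold change 1.36 ± 0.23, edgeR adjusted p = 0.047). Values within each group differed by less than the gap between groups. Nr4a3 and Bhlhe40 each lost the call without WT replicate 2 (edgeR adjusted p = 0.123 and 0.134), without IL1a-/- replicate 1 (0.0957 and 0.0851), at 1000 UMIs per barcode (0.0741 and 0.0503) and with free RNA subtracted (0.0772 and 0.0758), and Nr4a3 also without high doublet scores (0.0568). Tbx21 and Eomes, the T-box factors of effector and memory cells, were at 45.8 and 52.2 against 94.2 and 89.3 CPM and at 122 and 122 against 71.2 and 33.3 CPM (adjusted p = 0.123 and 0.144), and Eomes passed without IL1a-/- replicate 1 (0.0291).

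Genes of the memory list lay lower in IL1a-/- hosts. All 12 tested genes of the 13 listed had a negative log2 fold change, 9 had both IL1a-/- tumours below both WT tumours (24.1% of all genes did), 2 were called lower, and the median was -1.43. Klf2, a transcription factor of quiescent T cells and of their egress from lymph nodes, was at 168 and 128 against 33.7 and 52.8 CPM (log2 fold change -1.74 ± 0.29, edgeR adjusted p = 0.047). Both WT values were above both IL1a-/- values. The call was lost without IL1a-/- replicate 1 (edgeR adjusted p = 0.0851), at 1000 UMIs per barcode (0.0503), with free RNA subtracted (0.0627) and without high doublet scores (0.0568).

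Stem-like genes of the same list missed the threshold here and passed it in some other settings. Tcf7 (TCF-1) was at 177 and 125 against 29.9 and 73.4 CPM (adjusted p = 0.130). Slamf6, a surface marker of the stem-like state, was at 101 and 112 against 38.3 and 52.3 CPM (adjusted p = 0.075), and Il7r, the survival receptor for interleukin 7, at 443 and 140 against 95.0 and 126 CPM (adjusted p = 0.213). WT replicate 1 alone was high in Il7r, while the IL1a-/- tumours were below both WT tumours in all 3 genes. Without IL1a-/- replicate 2, Tcf7 passed at a log2 fold change of -2.30 (edgeR adjusted p = 0.000107), as did Slamf6 (0.0148) and Il7r (0.0225). Slamf6 also passed without WT replicate 1 (0.0468), with at least 2 CD8 UMIs (0.0355), without barcodes of other cells (0.0294) and in the αβ gate without innate genes (0.0250). Il7r passed without WT replicate 2 (0.0137).

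The rule bears on these genes, since it allows 1 UMI of Lef1, Ccr7 or Dapl1. Such a UMI was in 22.8% and 18.6% of WT members and in 7.25% and 12.6% of IL1a-/- members. With those barcodes left out, an alternative added after the data were seen, Klf2 stood at a log2 fold change of -1.63 (adjusted p = 0.043). With barcodes of naive genes, of other cells, of innate genes (Fcer1g, Tyrobp, Klrb1c) and without a UMI of the αβ receptor constant genes all left out, 559 and 425 IL1a-/- barcodes and 61 and 105 WT barcodes remained. There 6 genes of the list were called lower, among them Slamf6, Id3, Klf3, Klf2 and Tcf7, while Gzmb, Prf1, Ccl5, Csf1, Ctla4, Nr4a2, Icos, Nr4a3, Bhlhe40, Xcl1 and Ccl1 also passed the test. Klrc1, Klrc2 and Pim1, described below, lost their calls there (edgeR adjusted p = 0.0604, 0.0541 and 0.0541).

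Receptors shared with NK cells moved both ways: of 12 listed genes 8 were tested, 2 were called higher and 1 lower, and the median was 0.98. Klrc1 and Klrc2, the NKG2A and NKG2C chains that recognise Qa-1, were at 131 and 170 against 517 and 372 CPM and at 79.4 and 94.0 against 274 and 219 CPM. Both rose, with log2 fold changes of 1.54 ± 0.26 and 1.49 ± 0.25 (edgeR adjusted p = 0.048 and 0.046). Klrc1 lost its call without any 1 of WT replicate 1, WT replicate 2 or IL1a-/- replicate 1 (adjusted p = 0.0502, 0.0591 and 0.0979), and Klrc2 without either of the last 2 (0.0781 and 0.0851). Neither passed with free RNA subtracted (0.0772 for each) or without high doublet scores (0.0568 for each). Klrc1 was also lost without barcodes holding a naive gene UMI (0.0532) and in the αβ gate without innate genes (0.0538), and Klrc2 at 1000 UMIs per barcode (0.0916). Klrc1 and Klrc2 are close relatives whose reads the counting could split, so their single levels are uncertain. Klrk1 (NKG2D) was at 51.9 and 107 against 171 and 175 CPM (adjusted p = 0.164). Tyrobp (DAP12), the adapter of innate receptors, was at 458 and 172 against 30.6 and 28.2 CPM (log2 fold change -3.39 ± 0.46, edgeR adjusted p = 0.033). Myeloid and plasmacytoid dendritic cells also make Tyrobp, and without barcodes of other cells its log2 fold change was -2.18 (adjusted p = 0.010). With free RNA subtracted Tyrobp missed the threshold (0.0640).

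Markers of plasmacytoid dendritic cells lay lower in the IL1a-/- gate. Siglech, a defining receptor of that type, was at 183 and 67.2 against 9.96 and 3.08 CPM (log2 fold change -4.27 ± 0.62, edgeR adjusted p = 0.035; 0.0553 with free RNA subtracted and 0.0775 without high doublet scores). It was the 1 gene called of the 6 listed, whose median was -3.20 and all of which had both IL1a-/- tumours below both WT tumours (24.1% of all genes did). Rnase6, which such cells also express, and Atp1b1 were called lower with log2 fold changes of -3.73 and -4.39. The summed level of the 6 listed genes was 853 and 453 CPM in the WT gate and 215 and 190 in the IL1a-/- gate. Barcodes of other cells are taken out by UMIs of 3 genes of this list among others, and without them 2 of the 6 genes had enough counts to be tested. Atp1b1, which is not on the list, then stood at -3.21 (edgeR adjusted p = 0.0538), and its p was 0.0640 with free RNA subtracted. Tumour epithelial genes were in WT replicate 2 alone at 2599 CPM, against 4.51 to 62.4 elsewhere, which touches Wfdc18, a called gene at 27.5 and 115 against 3.83 and 0 CPM. Its call was lost with at least 2 CD8 UMIs (edgeR adjusted p = 0.156) and by DESeq2 (0.311).

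**Figure D4:**
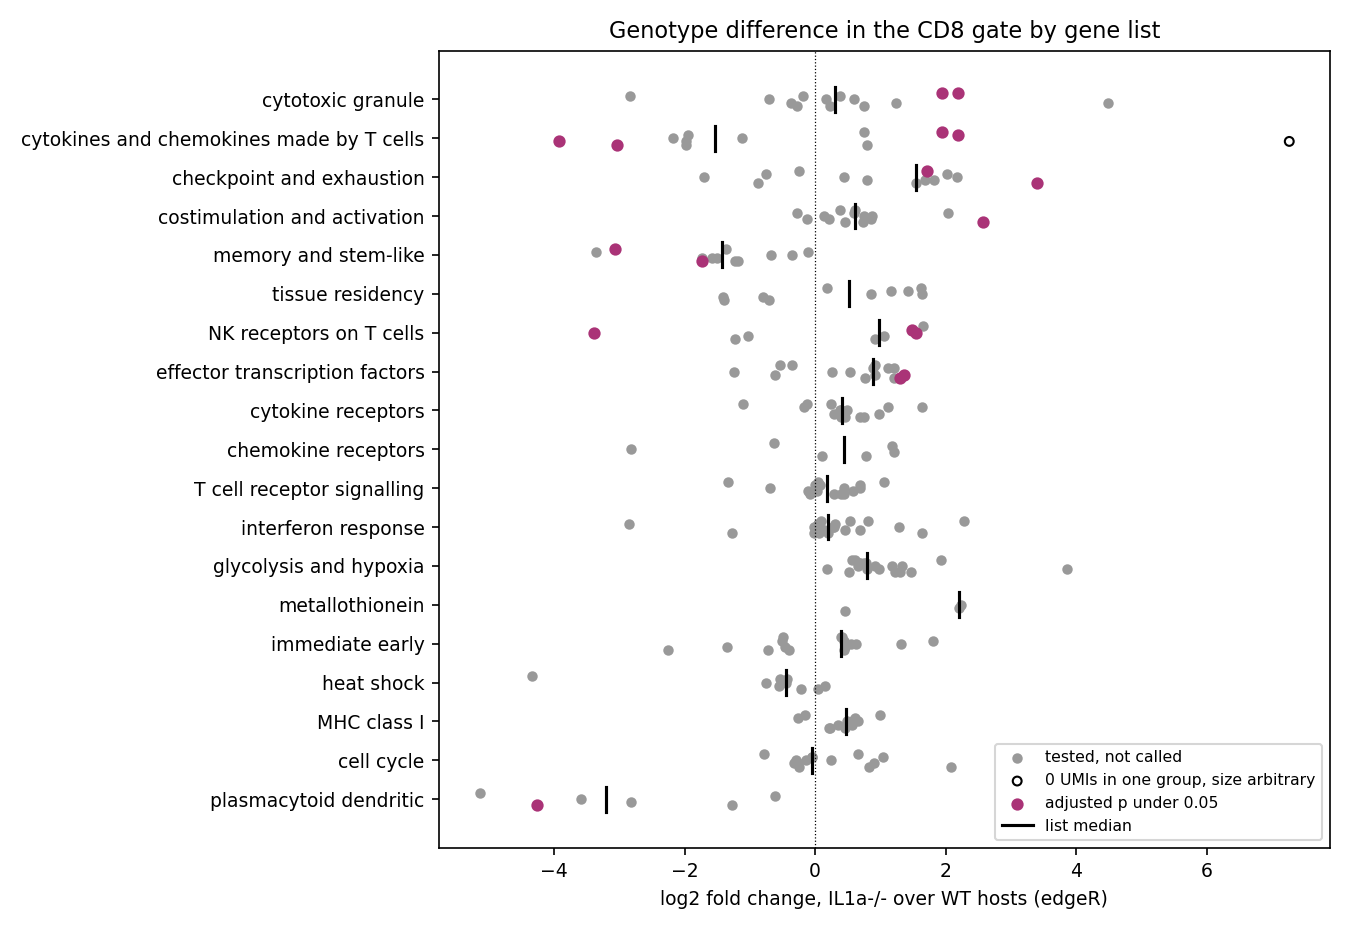
Log2 fold change (IL1a-/- over WT, edgeR) of each tested gene of each list in the CD8 gate, with genes past an adjusted p of 0.05 in colour and the list median as a bar; genes of the rule are left out and a hollow point has 0 UMIs in one group, so its position is arbitrary. The memory list lies below 0 throughout (median -1.43) and the glycolysis list above it (median 0.80, 0 called).

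Metabolic and stress lists gave few or no calls. Of 20 glycolysis and hypoxia genes, 19 were tested and 19 had a positive log2 fold change, with a median of 0.80, 12 higher without overlap between groups (24.7% of all genes) and 0 called. Aldoa was at 214 and 376 against 412 and 981 CPM and Hif1a at 147 and 100 against 263 and 333 CPM (adjusted p = 0.213 and 0.077). IL1a-/- replicate 2 was the highest tumour in both. Aldoa passed without IL1a-/- replicate 1 (0.0341), and Hif1a passed without WT replicate 1 (0.0259), without barcodes of other cells (0.0353) and by DESeq2 (0.0121). Hilpda, a lipid droplet protein induced by hypoxia that is on no list, was at 39.7 and 46.3 against 266 and 277 CPM (log2 fold change 2.64 ± 0.25, edgeR adjusted p = 0.017). Of 10 heat shock genes, 9 were tested and 0 called, with a median of -0.44. Hspa1b was at 311 and 47.8 against 10.7 and 6.16 CPM (adjusted p = 0.071), and passed without any 1 of the 4 tumours (0.0255 at most), without barcodes of other cells (0.0193) and at 1000 UMIs per barcode (0.0122).

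Lists of signalling and antigen presentation also had 0 calls by edgeR in the reported comparison. The medians were 0.19 for T cell receptor signalling (16 genes tested), 0.19 for the interferon response (21) and 0.47 for MHC class I (13). They were 0.40 for immediate early genes (16), 0.51 for tissue residency (10), 0.44 for chemokine receptors (6) and -0.05 for the cell cycle (14). The rule turned away barcodes with 2 or more UMIs of Mki67 and Top2a. The cell cycle values therefore describe only barcodes kept as not cycling and say nothing about cycling CD8 cells. At an unadjusted p under 0.05, 1319 of all 7657 genes passed. Without barcodes of other cells, edgeR called Fosl2 and Fosb of the immediate early list and Rgs2 of the residency list higher. In the αβ gate without innate genes the immediate early list had 1 call higher and 1 lower. The T cell receptor, MHC class I, chemokine receptor and cell cycle lists kept 0 calls in both settings. Ly6a, an interferon-induced surface protein, was at 104 and 101 against 247 and 752 CPM (adjusted p = 0.080). It passed without either IL1a-/- tumour (0.00120 without replicate 1 and 0.0220 without replicate 2) and without barcodes of other cells (0.0251). Itgae, the residency integrin CD103, was at 104 and 41.8 against 30.6 and 21.5 CPM (adjusted p = 0.174; 0.0365 without WT replicate 2), and Cxcr6, a homing receptor of tissue T cells, at 321 and 376 against 622 and 638 CPM (adjusted p = 0.103; 0.0366 by DESeq2).

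Cytokine receptors bear on the question of interleukin 1 itself. Il1r1, the signalling receptor of interleukin 1α, had 1 UMI in all CD8 members together and was not tested. Its co-receptor Il1rap had 8, 5, 10 and 19 UMIs in WT replicates 1 and 2 and IL1a-/- replicates 1 and 2, and the decoy receptor Il1r2 had 4, 0, 3 and 6. Il18r1, of the same receptor family, was at 137 and 128 against 151 and 199 CPM (log2 fold change 0.40 ± 0.24, edgeR adjusted p = 0.444). Il2rb, a chain of the receptors for interleukins 2 and 15, was at 388 and 428 against 932 and 681 CPM (adjusted p = 0.096; 0.0113 without IL1a-/- replicate 2). Of 19 genes of the list, 16 were tested and 0 called, with a median of 0.41.

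Other called genes fell outside the lists. S100a4, a calcium-binding protein of effector and memory T cells, was at 470 and 605 against 2068 and 2663 CPM (log2 fold change 2.13 ± 0.23, edgeR adjusted p = 0.018). Cdkn1a (p21), Dusp5, a phosphatase of ERK, and Pim1, a kinase induced by cytokines, were higher, with log2 fold changes of 3.31, 1.61 and 1.34. None of the 3 passed without WT replicate 2 (edgeR adjusted p = 0.105, 0.0807 and 0.125). Cdkn1a was also lost at 1000 UMIs per barcode (0.0911), Dusp5 with free RNA subtracted (0.0772) and without high doublet scores (0.0568), and Pim1 in all of these (0.0765, 0.0603 and 0.0657) and without IL1a-/- replicate 1 (0.0893). The rule limits mitochondrial UMIs to 20% of a barcode, so mitochondrially encoded genes took part in choosing the barcodes. Their test results are descriptions for that reason. Of these genes 4 were called lower. mt-Atp6 was at 8204 and 9205 against 3117 and 3988 CPM (log2 fold change -1.29 ± 0.19, edgeR adjusted p = 0.035). The log2 fold changes of mt-Co3, mt-Nd1 and mt-Nd2 were -1.12, -1.15 and -1.48. These 4 calls were lost without WT replicate 2 (0.0577 to 0.134) and with free RNA subtracted (0.128 to 0.503). The median mitochondrial share of members was 3.60% and 3.65% in WT and 2.16% and 2.43% in IL1a-/- tumours, which also moves with RNA quality; its part was not tested.

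A pair of near-identical genes changed in opposite directions. Eif3j1 (chromosome 2, 122028546 to 122056598), a translation initiation factor, was at 27.5 and 28.4 against 142 and 123 CPM (log2 fold change 2.24 ± 0.26, edgeR adjusted p = 0.025). Its copy Eif3j2 was at 51.9 and 58.2 against 0.766 and 2.05 CPM (log2 fold change -5.09 ± 0.48, edgeR adjusted p = 0.017). Reads can be split between such copies by the counting, so the level of each is uncertain. Opposite shifts were also called in the other gates of the same tumours, with log2 fold changes of 2.73 and 2.88 for Eif3j1 and -4.97 and -5.36 for Eif3j2 in CD4 and NK cells.

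Whether these differences belong to CD8 cells was asked by fitting the CD8 gate with the CD4 or the NK gate and testing the difference of genotype differences. The gates come from the same 4 tumours, so each comparison keeps the tumour as a term. Against CD4 cells, 53 of 7596 genes differed (0.698%). Ctla4 rose more in CD8 cells: its CD4 levels were 392 and 323 against 859 and 820 CPM, and the difference of log2 fold changes was 2.17 ± 0.24 (edgeR adjusted p = 0.00031). The difference was also above 0 for Icos (1.26 ± 0.22), S100a4 (1.98 ± 0.19), Hilpda (1.72 ± 0.29), Csf1 (2.04 ± 0.39), Adam8 (2.58 ± 0.47) and Pdcd1 (1.43 ± 0.31), with edgeR adjusted p of 0.0131, 5.44e-05, 0.00962, 0.0239, 0.0158 and 0.0460. Pdcd1 was at 162 and 208 against 223 and 167 CPM in CD4 cells, and its CD8 difference alone was not called. At 1000 UMIs per barcode 2 of these 7 differences passed, Ctla4 and S100a4 (edgeR adjusted p = 0.0203 and 0.00017). Without IL1a-/- replicate 2 Adam8, Pdcd1 and Icos missed the threshold (0.263, 0.108 and 0.0516), without IL1a-/- replicate 1 Pdcd1 and Icos (0.0979 and 0.0805), and without WT replicate 2 Csf1 (0.0704).

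Tcf7 and Klf2 of the memory list, and Klrc1 and Klrc2 of the NK receptor list, parted the gates in the other direction. Slamf6 and Il7r of the memory list were not among the genes that passed. Tcf7 was at 112 and 111 against 223 and 207 CPM in CD4 cells, and its difference between gates was -2.35 ± 0.37 (edgeR adjusted p = 0.00544). Klf2 differed likewise (-1.88 ± 0.34, edgeR adjusted p = 0.0156). Klrc1 and Klrc2 rose more in CD4 cells, from 6.60 and 2.91 to 105 and 80.7 CPM for Klrc1, with differences of -2.81 ± 0.46 and -2.46 ± 0.50 (edgeR adjusted p = 0.00707 and 0.0339). None of these 4 passed at 1000 UMIs per barcode (0.118 for Tcf7, 0.288 for Klf2, 0.536 and 0.828 for Klrc1 and Klrc2). Klf2, Klrc1 and Klrc2 also missed the threshold without WT replicate 2 (0.0587, 0.0687 and 0.260) and without IL1a-/- replicate 2 (0.0886, 0.108 and 0.215).

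Other genes did not pass this test. Gzmb differed by 0.23 ± 0.47 (adjusted p = 0.945), Nr4a2 by -0.03 ± 0.25, Nr4a3 by -0.52 ± 0.29 and Ccl5 by -0.74 ± 0.29 (adjusted p = 0.381; 3.6e-06 without WT replicate 1), which does not show that the gates are alike. Ccl5 was called higher in CD4 cells on their own, from 232 and 205 to 3090 and 893 CPM (edgeR adjusted p = 0.0175; 1.44% of 6802 genes were called there). In NK cells it was at 2766 and 3663 against 6856 and 8643 CPM (edgeR adjusted p = 0.00704; 5.51% of 7656 genes were called there).

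Against NK cells 1 of 8656 genes differed by edgeR (0.0116%), with 714 at an unadjusted p under 0.05. Without IL1a-/- replicate 2 there were 0 calls against NK cells, and without WT replicate 1 there were 105. Xcl1 was lower in NK cells too, at 1464 and 1102 against 709 and 406 CPM, and the difference between gates was -2.55 ± 0.48 (edgeR adjusted p = 0.144). That difference passed without WT replicate 1 (0.000227), without WT replicate 2 (0.00619) and at 1000 UMIs per barcode (0.0145).

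**Figure D5:**
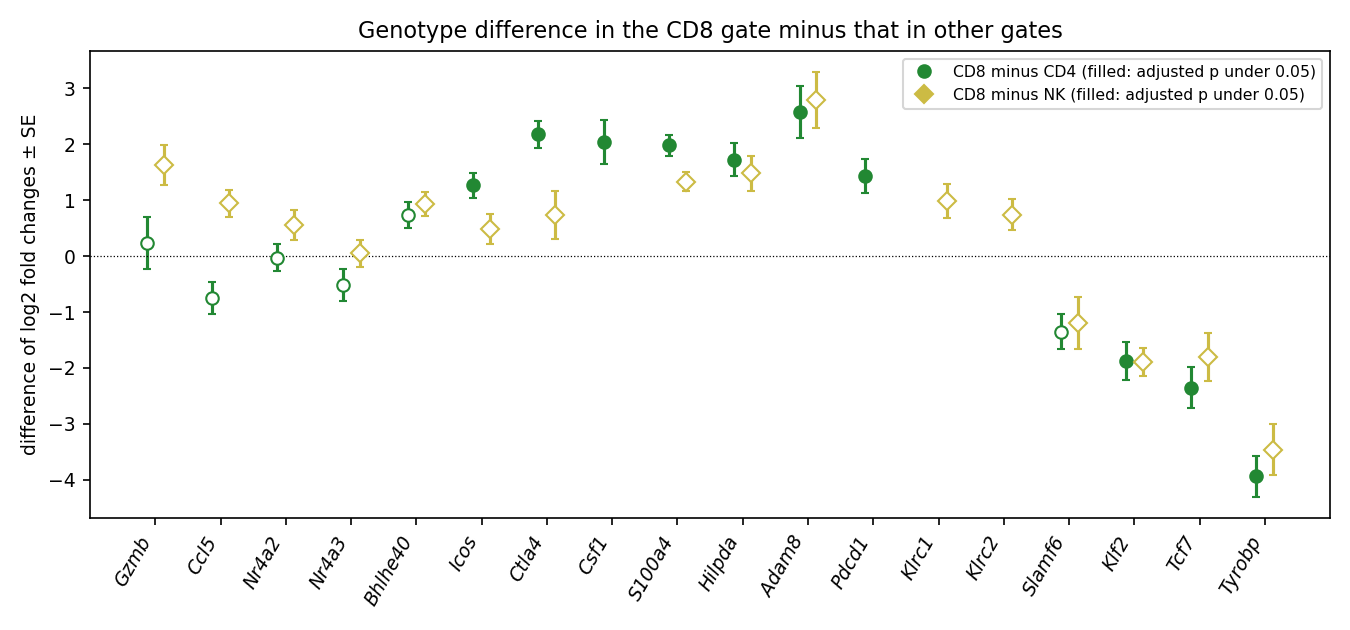
Difference between gates in the log2 fold change (IL1a-/- over WT), CD8 minus CD4 (circles) and CD8 minus NK (diamonds), with standard errors; filled points have an edgeR adjusted p under 0.05, and pairs with under 10 CPM summed over a group of the other gate are left out. Ctla4 (2.17) and Adam8 (2.58) lie above 0 against CD4 cells, and Tcf7 (-2.35) and Klf2 (-1.88) lie below it.

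Within the gate the genes did not spread evenly over barcodes. Among IL1a-/- members thinned to 1000 UMIs, those with a Havcr2 UMI, 123 of 647 and 45 of 545, had Gzmb at 1431 and 2156 CPM, against 824 and 772.0 CPM in those without. Prf1 was at 439 and 667 against 242 and 212 CPM. Barcodes with Il7r, 36 and 51 of them, went the other way, with Gzmb at 417 and 333 against 971 and 943 CPM. Tcf7 was at 167 and 196 CPM in the Il7r barcodes and at 24.5 and 72.9 in the rest, from 6 and 10 UMIs. These splits are descriptions within 2 tumours, and the WT tumours had too few Havcr2 barcodes (0 and 1) to set beside them.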

How the data were processed

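Single-cell suspensions of 4 tumours were sequenced with 10x Genomics 3′ chemistry, 1 library each. The authors deposited raw UMI counts per gene and barcode, made with Cell Ranger 3.1.0 per the submitters' processing notes, on features of human and mouse together per the file headers; the 31053 mouse genes of 64591 features were used. Members and gene lists were chosen with earlier results of these data known. Counts of members were summed per tumour and fitted with edgeR 4.0.16 (R 4.3.3; filterByExpr, TMM, quasi-likelihood test, Benjamini-Hochberg over all genes tested, threshold 0.05), for the CD4 and NK differences with the tumour as a block. DESeq2 1.42.0 was an alternative. Scrublet (scanpy 1.11.5) marked likely doublets, which were kept in the results and left out in an alternative. Free RNA was profiled from barcodes of at most 100 UMIs. Named genes are up to 4 called genes per list, 28 set genes, and the 8 higher and 8 lower with the smallest p of at least 20 CPM in one group and no overlap; Hilpda, S100a4, Adam8, Eif3j1, Eif3j2, Rnase6 and Atp1b1 come from the last part. Some genes that the rule names are not reported here. Other genes given as examples were picked after their values were seen, among them Serpinb9, Nkg7, Ccl3, Ccl4, Il10, Cd44, Aldoa, Hif1a, Hspa1b, Ly6a, Il2rb, Cdkn1a, Dusp5, Pim1 and the mitochondrial genes. On simulated counts for 7682 genes of the CD8 comparison, the test recovered 80% and 92% of genes changed by -2 and 2 on the log2 scale, and 4.08% and 12% of those changed by -1 and 1. The changed genes were drawn from those above 20 CPM on average, and all genes had the same simulated spread (dispersion). The simulation therefore does not cover lower genes or genes in which 1 tumour stands apart.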

Additional observations from a re-analysis of the deposited data

Results flagged for a closer look

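Genotype differences that differed between the CD8 gate and the CD4 gate of the same tumours, by edgeR's interaction test, are listed here as the CD8 log2 fold change minus that of CD4 cells. The positive ones were Adam8 (2.58), Ctla4 (2.17), Csf1 (2.04), S100a4 (1.98), Hilpda (1.72), Pdcd1 (1.43) and Icos (1.26). The negative ones were Klf2 (-1.88), Tcf7 (-2.35), Klrc2 (-2.46), Klrc1 (-2.81), Tyrobp (-3.94), Rnase6 (-4.31), Siglech (-5.83) and Atp1b1 (-6.20). Tyrobp, Rnase6, Siglech and Atp1b1 are genes that plasmacytoid dendritic cells also express. Klrc1 was near the floor in the WT CD4 gate, so the size of its difference is uncertain. At 1000 UMIs per barcode 14 of the 15 could be tested, and 2 passed, Ctla4 and S100a4. Of the 15, 8 passed without IL1a-/- replicate 2, 11 without WT replicate 2, 13 without IL1a-/- replicate 1 and 15 without WT replicate 1.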

How the results depend on the processing

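The CD8 comparison called 73 genes, and all called genes still tested kept their direction in every setting run. The count was 811 with no low-count filter, 153 by DESeq2's Wald test, 41 at 1000 UMIs per barcode, 16 with free RNA subtracted, 128 with at least 2 CD8 UMIs, 122 in the αβ gate without innate genes, 117 without barcodes of other cells, 112 without barcodes holding a naive gene UMI and 137 with the 3 stricter gates together. The gates named last were chosen after seeing the data. Against CD4 cells the 53 calls became 194 with no filter and 8 at 1000 UMIs, and against NK cells the 1 call became 278 and 14. Leaving out 1 tumour gave 79 to 374 calls in CD8 cells, 31 to 128 against CD4 cells and 0 to 105 against NK cells, where an arm has a single tumour that is assumed to vary like the other group. The cause of these shifts was not tested, except that fewer genes were tested with free RNA subtracted (7380) and at 1000 UMIs (4717) than in the reported comparison (7657).

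Replicate numbers are shared between groups, and the labels do not say whether they mark the 2 pairs collected on separate days. Deviations of WT replicate 1 and IL1a-/- replicate 1 from their group means had r = -0.0976 over 7657 genes. With 2 tumours a group, 1 such correlation cannot tell whether same-numbered tumours were a pair. With a replicate block 216, 203 and 38 genes were called in the 3 comparisons, Tox went to -0.19, and the cycling difference was -0.439 points in pair 1. Leaving out 1 tumour moved the cycling difference between -1.59 and 11.6 points. It moved the log2 fold change of Gzma between -3.71 and 3.07, Gzmc between -1.49 and 2.19, Ifng between -2.85 and 1.35, Tox between -1.65 and 1.31, Cd69 between -0.572 and 0.0775, Ccl3 between -2.81 and 0.645 and Ccl4 between -1.76 and 0.176. It moved the CD8 minus CD4 difference of Gzmb between -0.410 and 1.24, Nr4a2 between -0.0772 and 0.114 (0.108 with no filter) and Nr4a3 between -0.916 and 0.0140. Of the calls of named genes, 14 were lost without WT replicate 2, 9 without IL1a-/- replicate 1, 1 without WT replicate 1, 22 with free RNA subtracted, 11 at 1000 UMIs and 8 without high Scrublet scores, while 26 were gained with no filter, 17 without IL1a-/- replicate 2 and 6 by DESeq2. Named genes in these counts include the examples picked after their values were seen. Of all 73 calls, 27 were also called at 1000 UMIs per barcode and 15 with free RNA subtracted. The WT gate holds 92 and 161 barcodes, which limits every low gene.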

Other observations

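The use of the 2 constant genes of the T cell receptor β chain differed between tumours. Of Trbc1 plus Trbc2 UMIs in the CD8 gate, Trbc1 was 27.9% and 48.9% in the WT tumours and 7.49% and 26.4% in the IL1a-/- tumours. In the CD4 gate the shares were 48.3% and 53.0% against 37.8% and 47.2%. Trbc1 and Trbc2 are near-identical copies, and each share is uncertain for that reason.

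Eif3j1 and AA467197, both higher in IL1a-/- hosts, lie on chromosome 2 within 10 Mb of Il1a (chromosome 2, 129299610 to 129309972, GENCODE vM21). They were the 2 called of 94 genes tested in that window, beside 0.953% of all genes tested. The window was chosen after these values were seen.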
